A study of Mus musculus with 8 samples.

Results

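The genes described here are those of fibroblast growth factor (FGF) and mitogen-activated protein (MAP) kinase signalling: FGF ligands and receptors, the Sprouty and Spred inhibitors, the dual specificity phosphatases (Dusp) and the 3 tiers of MAP kinases. They were chosen by symbol, as every platform symbol made of Fgf, Fgfr, Spry, Spred, Dusp, Mapk, Map2k or Map3k and a number. This gave 89 of the 19057 named genes, carried by 183 probes. Expression had been measured on Illumina MouseWG-6 v2 arrays in gut cells of E12.5 mouse embryos of mixed C57BL/6J and 129 background, with 4 wildtype and 4 Bapx1 null samples. The cells were dissociated from dissected gut and isolated by fluorescence-activated cell sorting (FACS) for enhanced green fluorescent protein (EGFP), which both genotypes expressed from the endogenous Bapx1 locus. Wildtype embryos carried EGFP behind an internal ribosome entry site in the 3′ untranslated region (Bapx1 +/tm2.Tlu), so that Bapx1 protein was still made. In Bapx1 null embryos both alleles carried EGFP directly behind the start codon (Bapx1 tm4.Tlu/tm4.Tlu). The number of EGFP alleles therefore differed between the genotypes together with Bapx1, and these cannot be told apart. How many embryos made up a sample is not given in the sources used here.

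FGF ligands bind receptor tyrosine kinases together with heparan sulfate, and the receptors pass the signal through Ras to a relay of kinases in which a MAP3K phosphorylates a MAP2K and a MAP2K phosphorylates a MAP kinase. Separate relays end in the ERK, ERK5, JNK and p38 kinases. Sprouty and Spred proteins restrain the relay above the MAP kinases, and dual specificity phosphatases switch the kinases off, several of them being induced by the signal itself. In the embryonic gut FGF signals pass between the epithelium and the mesenchyme around it, the layer in which Bapx1 (Nkx3-2), a homeobox transcription factor, is expressed.

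Both genotypes expressed the mesenchymal list that was used to check the tissue, with 13 of 14 genes above background and a median log2 difference of 0.07. Bapx1 itself stayed at background on the wildtype arrays, at log2 intensities of 4.44 to 4.50, and was detected on every Bapx1 null array at 6.46 to 7.56, a signal at least 2.79-fold higher. With its second probe Bapx1 lay at 4.37 to 4.54 and at 6.27 to 7.38, at least 2.47-fold higher. Where its probes lie in the transcript was not analysed, so that they did not check the genotypes. Wildtype arrays detected 38.2% to 40% of probes, and Bapx1 null replicates 1, 2, 3 and 4 detected 36.3%, 31%, 36.4% and 38.5%. Markers of other cell types differed too. Summed linear levels of fetal hepatocyte genes were 459.7 to 11420 in wildtype against 200.9 to 443.9 in Bapx1 null, and those of platelet genes 1103 to 5967 and 239.6 to 476.7. Smooth muscle genes summed to 14430 to 28570 and 41790 to 48210. All 6 measured of 15 hepatocyte genes and all 5 measured of 9 platelet genes were lower in Bapx1 null. Alb, Hnf4a and Itga2b were among those that did not pass the detection filter. The hepatocyte genes and the platelet genes other than Pf4 were detected on all wildtype arrays and on at most 2 Bapx1 null arrays. They were thus kept through the genotype in which they were brighter, and their shared direction is given as a description. All 10 measured smooth muscle genes were higher, among them Tagln, which was detected on 1 wildtype array and 3 Bapx1 null arrays. Lower as well were all 6 measured of 10 erythroid genes, with sums of 1574 to 4103 and 271.9 to 1290. So were all 7 measured of 11 cartilage and sclerotome genes (2700 to 9695 and 1192 to 3404). Of 13 macrophage and leukocyte genes 8 were measured and 7 of these were lower (1352 to 2288 and 718.3 to 1971). Gata1, Klf1 and Ptprc did not pass the filter, and Slc4a1 and Ctss were detected on no Bapx1 null array. Csf1r, Adgre1 and Mpeg1 were detected on all wildtype arrays and 1 Bapx1 null array each, and Hbb-bh1 on all wildtype and 2 Bapx1 null arrays. Pax1 of the cartilage list was detected on 3 wildtype arrays and 1 Bapx1 null array. These genes too were kept mainly through wildtype, where they were brighter, and the shared directions of these lists are given as a description. Of the 9 skeletal myoblast genes Tnnt1 and Cdh15 were measured, both higher on each Bapx1 null array (sums of 230.1 to 313.6 and 389.7 to 1113), and the defining genes Myod1, Myf5 and Myog did not pass the detection filter. What part these differences had in the values below was not tested. In sorted cells measured in bulk, fewer cells of a type and less RNA per cell cannot be told apart.

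Of the 46 genes of these families measured in the sorted gut cells, 1 passed the threshold for a difference between the genotypes. Map3k3, a MAP3K of the ERK5 and p38 relays, was 2.22-fold higher in Bapx1 null, a call lost in 11 of 25 alternative settings. The other 45 genes differed by -0.71 to 0.93 on the log2 scale and did not pass the threshold. Among them the MAP kinase Mapk13 and the phosphatases Dusp23 and Dusp10 lay at 0.93, 0.75 and 0.62, and Map3k7, the ligand Fgf9 and the phosphatase Dusp6 at -0.71, -0.54 and -0.46.

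A gene was taken as measured when a probe was detected at a detection p under 0.01 on at least 4 of the 8 arrays, and was represented by its brightest such probe. This left 46 of the 89 genes (51.7%, against 51.3% of all named genes) and 72 of their probes. Differences are Bapx1 null minus wildtype in log2 intensity, from a limma model over all 9784 measured genes with Benjamini-Hochberg adjustment over all of them and a threshold of 0.05. In that model 77 genes passed (0.787%), 52 of them higher (0.531%) and 25 lower (0.256%). Among the 46 pathway genes 1 passed, Map3k3 (2.17%). At an unadjusted p under 0.05 there were 10 pathway genes (21.7%, against 27% of all genes), 7 of them higher and 3 lower. Of all genes 17.2% were higher and 9.73% lower at that p. The 3 lower pathway genes include Fgf22, which was detected on 1 Bapx1 null array and met the filter through wildtype. The genotypes did not overlap for 9 pathway genes (19.6%), against 18.6% of all genes. These were Map3k3, Dusp10, Dusp23, Map3k14, Map2k5, Mapk9 and Dusp5, higher on each Bapx1 null array (12.2% of all genes), and Dusp6 and Map3k7, lower on each (6.36% of all genes). Of the 46 genes 28 had a positive difference (60.9%, against 57.2% of all genes), and their median was 0.12 beside 0.07 for all genes. Apart from the single call, these shares lay near those of all genes.

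**Figure D1:**
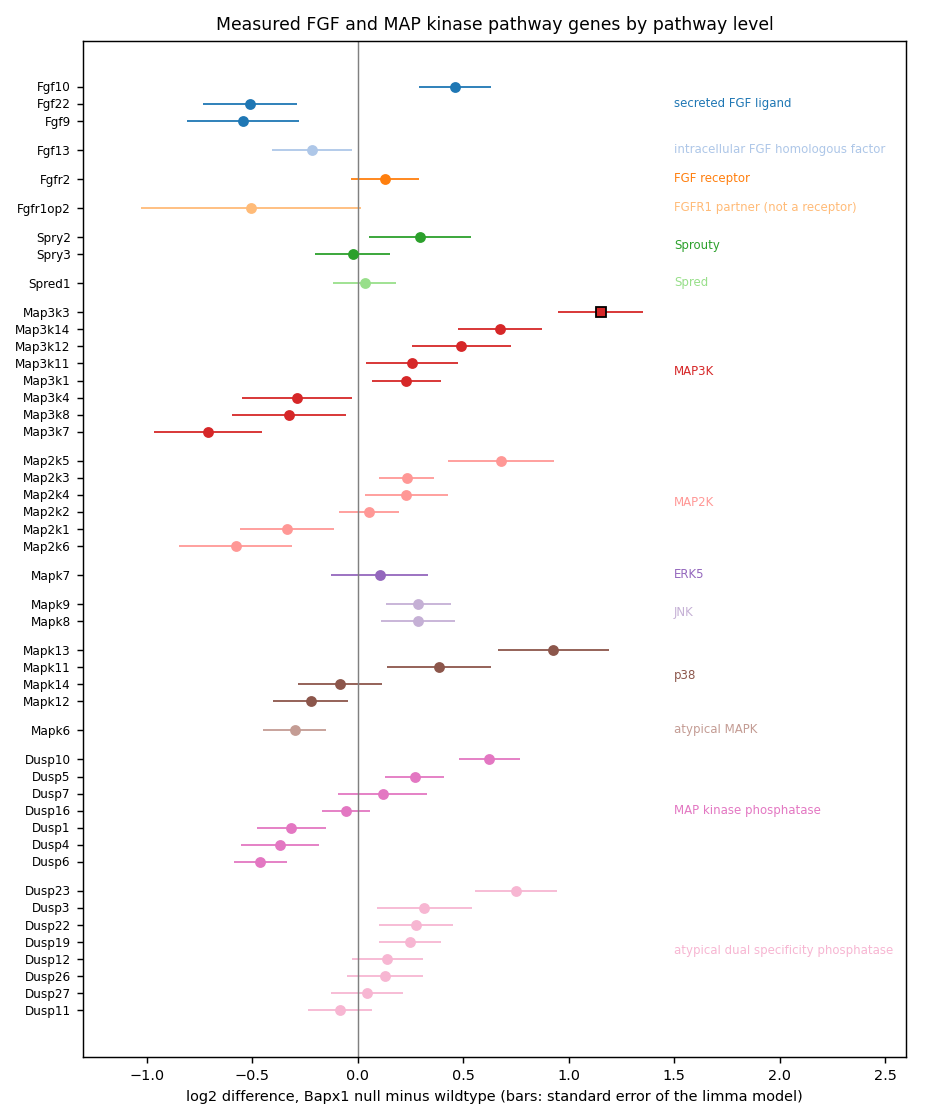
Log2 difference between Bapx1 null and wildtype (horizontal axis, n = 4 arrays each) for the 46 measured genes, grouped by pathway level, with bars for the standard error of the limma model. The square marks Map3k3 at 1.15, the only gene past the threshold, and the others lie between -0.71 and 0.93.

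Few ligands were above background in these cells. Of 15 secreted ligands 3 were measured, Fgf10, Fgf9 and Fgf22, and of the endocrine ligands Fgf15, Fgf21 and Fgf23 none was detected on any array. Fgf1 and Fgf7 were detected on 1 wildtype array each and Fgf5 on 1 array of each genotype, while the other 9 secreted ligands were detected on none. Among the FGF homologous factors, which stay inside the cell and bind sodium channels, Fgf13 was measured, at a difference of -0.22. Fgf12 was detected on 2 Bapx1 null arrays and on no wildtype array.

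**Figure D2:**
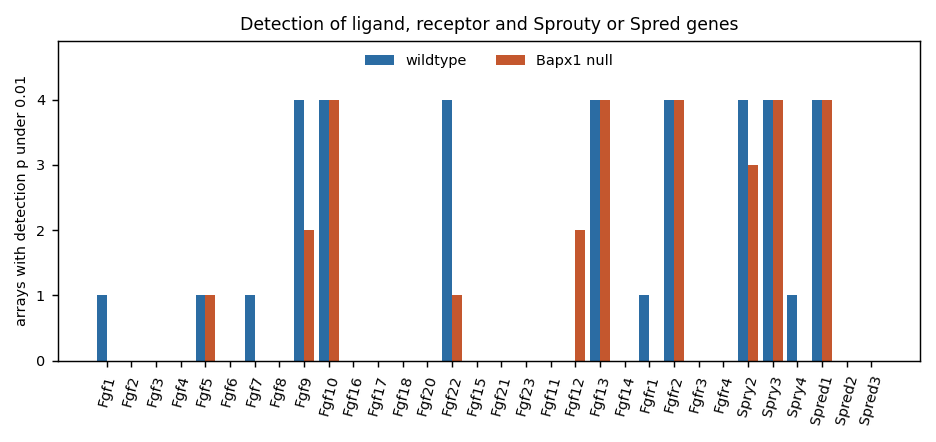
Number of arrays of each genotype (vertical axis, out of 4) with a detection p under 0.01 for ligand, receptor, Sprouty and Spred genes, each by its brightest kept probe or, with none kept, by the probe detected most often. Most ligands stand at 0 in both genotypes, whereas Fgf10, Fgf13, Fgfr2, Spry3 and Spred1 stand at 4 in both.

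Fgf10 encodes a ligand that the mesenchyme sends to the epithelium of several organs, and its values were 10.20, 10.66, 10.68 and 10.61 in wildtype against 11.19, 11.16, 10.65 and 10.99 in Bapx1 null. Bapx1 null replicate 3 lay within the wildtype range, wildtype replicate 1 lay below the rest of its group, and the genotypes overlapped. The difference of 0.46 ± 0.17 (SE) was not past the threshold (limma, adjusted p = 0.141). A second probe of Fgf10 gave 0.42 and the third, detected on 3 of 4 Bapx1 null arrays, gave -0.13.

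Fgf9, a ligand made in the embryonic gut by the epithelium and the mesothelium, was at 5.42, 6.20, 5.99 and 6.03 in wildtype and at 5.70, 4.61, 5.44 and 5.73 in Bapx1 null. It was detected on all wildtype arrays but on only 2 of 4 Bapx1 null arrays, so that its difference of -0.54 ± 0.27 (SE) includes values at background (limma, adjusted p = 0.212). The other probe differed by -0.95 and was detected on 1 Bapx1 null array. Markers of the epithelium moved alongside. All 6 measured genes of 15 on that list were lower in Bapx1 null, with summed linear levels of 755.2 to 1367 in wildtype against 486.3 to 718.4 in Bapx1 null, although Epcam, Shh, Cdx2 and Sox2 did not pass the filter. Cdh1 was detected on 4 wildtype and 2 Bapx1 null arrays and Cldn7 on 3 and 2, so that the shared direction is given as a description. The 4 measured mesothelial genes were lower as well, at 1577 to 3799 and 1498 to 2061. Their part in the Fgf9 values was not tested. Fgf22, another secreted ligand, was detected on 4 wildtype arrays and 1 Bapx1 null array and differed by -0.51 (limma, adjusted p = 0.178). Fgf9 and Fgf22 both met the detection filter through the wildtype arrays, where they were brighter, and their differences are given as a description.

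Fgfr2 was the receptor measured in these cells. It encodes a tyrosine kinase receptor whose splice forms differ between epithelium and mesenchyme. Its brightest probe gave 12.74, 12.70, 12.55 and 12.61 in wildtype against 12.82, 13.11, 12.40 and 12.79 in Bapx1 null. The Bapx1 null arrays held both the highest and the lowest of these values, and the difference was 0.13 ± 0.16 (SE, limma adjusted p = 0.599). The second probe of Fgfr2 gave -0.56, with 7.75, 7.63, 8.16 and 8.03 in wildtype against 7.92, 6.80, 6.43 and 8.17 in Bapx1 null, where replicates 2 and 3 lay below all other arrays. The splice form that each probe reads was not analysed. Fgfr1 was detected on 1 wildtype array, and Fgfr3 and Fgfr4 on none. Fgfr1op2, which is no receptor and was named after a fusion with Fgfr1, lay between 9.72 and 10.44 on 7 arrays and at 7.68 on Bapx1 null replicate 2. Without that array its difference of -0.50 became 0.12.

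Of the 6 inhibitors above the MAP kinases 3 were measured, and none passed the threshold. Spry2, a Sprouty gene that FGF signals induce in many tissues, was at 5.99, 5.81, 5.58 and 5.56 in wildtype and at 5.27, 6.43, 6.16 and 6.26 in Bapx1 null. Bapx1 null replicate 1, which did not detect it, was the lowest array and the other 3 Bapx1 null arrays the highest (difference 0.30 ± 0.24, SE, limma adjusted p = 0.421). Spred1, which recruits the Ras inhibitor neurofibromin, differed by 0.03 ± 0.15 (SE, limma adjusted p = 0.891). Spry3 differed by -0.02, Spry4 was detected on 1 wildtype array, and Spred2 and Spred3 were detected on none. Spry1 was not analysed here.

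At the first kinase tier 8 of 15 MAP3K genes were measured, 5 with positive and 3 with negative differences (median 0.24). Map3k3 was at 7.77, 7.98, 7.89 and 7.73 in wildtype and at 8.86, 9.54, 9.02 and 8.55 in Bapx1 null. Every Bapx1 null array lay above every wildtype array, with replicate 2 the highest. The difference was 1.15 ± 0.20 (SE, n = 4 against 4, limma adjusted p = 0.0372), read by 1 probe (ILMN_2592810). The call rested on single arrays. Leaving out any 1 wildtype array (limma adjusted p = 0.121, 0.111, 0.102 and 0.107 for replicates 1 to 4) or the third Bapx1 null array (0.109) ended it. Whichever single array of either genotype was left out, the difference stayed between 0.97 and 1.30. When the model held the share of detected probes on each array as a further term the difference was 0.70 (adjusted p = 0.118), and without normalization between arrays it was 0.57 (adjusted p = 0.231). The call was lost in 11 of 25 alternatives, over which the adjusted p ranged from 0.0116 to 0.231.

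**Figure D3:**
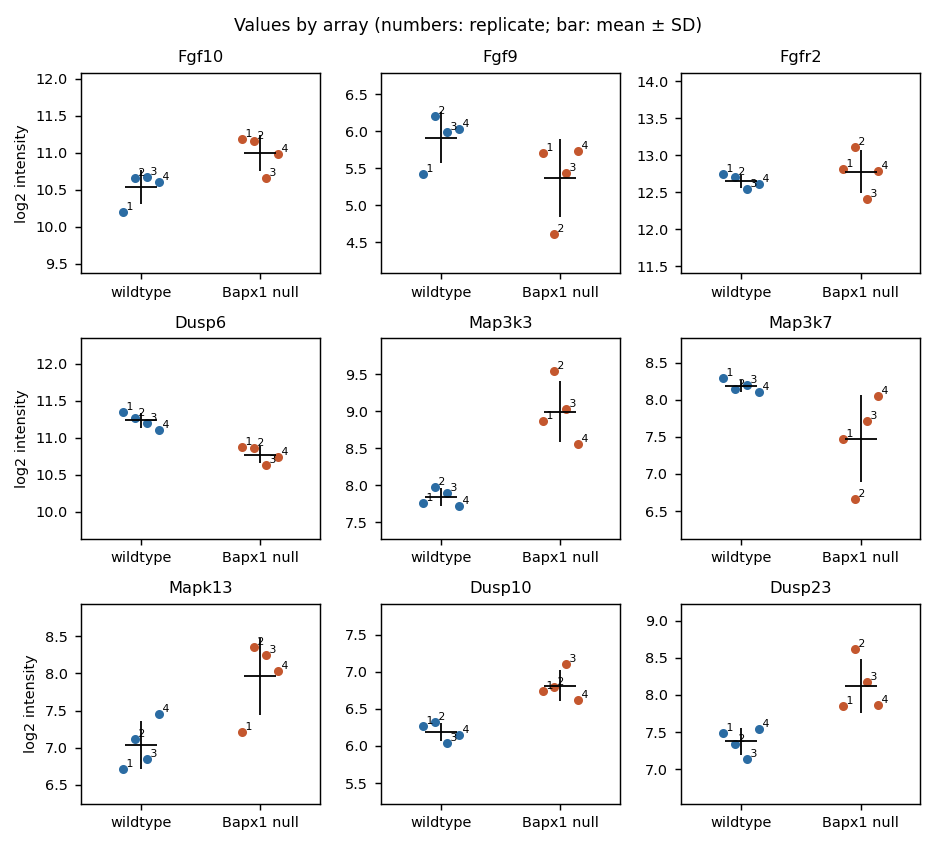
Log2 intensity (vertical axes, each spanning the same number of log2 units) on the 4 wildtype and 4 Bapx1 null arrays for 9 genes, with replicate numbers beside the points and bars for the mean ± SD. The genotypes separate for Map3k3, Dusp10, Dusp23, Dusp6 and Map3k7 and overlap for Fgf10, Fgf9, Fgfr2 and Mapk13.

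The promoter of Map3k3 was read for the hexamers that Bapx1 binds, TAAGTG and TGAGTG, because Map3k3 was the gene that passed the threshold. Windows of 250 bases before to 50 after each gene start came from RefSeq (GRCm38.p6), were searched on both strands, and covered 41 of the 46 genes with 53 windows. TGAGTG was found in the windows of Map3k3, Dusp5, Map2k4 and Map2k6, and TAAGTG in those of Fgf9, Fgf13, Mapk8, Dusp11 and Dusp27. Either hexamer occurred in 10 of the 53 windows (18.9%), against 23.9% of all 32851 windows of that length. A site of the gene that passed the threshold and of 3 genes with differences of either sign is shown on the strand of the gene, 5′ to 3′, with the hexamer or its reverse complement in capitals.
Map3k3, chr11:106084534-106084563, plus strand: cagatgctggcaTGAGTGacaggctgcaag
Dusp5, chr19:53529072-53529101, plus strand: gccttatatgggCACTCAcgtcacaggacg
Fgf9, chr14:58072655-58072684, plus strand: atatcgcccaggCACTTAcgttgctatggt
Map2k6, chr11:110479198-110479227, plus strand: cttctgcctcccTGAGTGgcttccactgcc
The hexamers began 41, 61, 19 and 130 bases before the start of Map3k3, Dusp5, Fgf9 and Map2k6. Map3k3 and Dusp5 were higher on every Bapx1 null array, while Fgf9 and Map2k6 had differences of -0.54 and -0.58. A match of letters is a description of the window and not a bound site. The ETS site CCGGAAGT, searched on both strands because ETS factors act below ERK, was found in 1 of the 53 windows (1.89%, against 3.89% of all windows), that of Map3k11.

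Map3k7, which encodes TAK1, a kinase activated by TGF-beta and inflammatory signals, had the lowest difference of all 46 genes. Its values were 8.29, 8.14, 8.21 and 8.10 in wildtype against 7.47, 6.67, 7.72 and 8.05 in Bapx1 null. Each Bapx1 null array lay below the wildtype arrays, replicate 4 by a small margin and replicate 2 by the widest. The difference of -0.71 ± 0.26 (SE) did not pass (limma, adjusted p = 0.137), and passed (limma, adjusted p = 0.0438) once Bapx1 null replicate 4 was left out, where 12.7% of all genes passed.

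Map3k14, the NIK kinase of non-canonical NF-kappa-B signalling, was at 6.69, 6.44, 6.27 and 6.42 in wildtype and at 6.86, 7.56, 7.33 and 6.76 in Bapx1 null. The genotypes did not overlap, and the difference was 0.67 ± 0.20 (SE, limma adjusted p = 0.111). Without Bapx1 null replicate 4 the gene passed (limma, adjusted p = 0.0412), as did 12.7% of all genes. Map3k12, the DLK kinase of neurons and other cells, differed by 0.49 with 1 probe and by -0.07 with another. Map3k1, a kinase above JNK, differed by 0.23 and by -0.33 with its other probe, and Map3k4, a kinase above p38, by -0.29. The remaining Map3k8 and Map3k11 lay at -0.32 and 0.26, Map3k8 being detected on 1 of 4 Bapx1 null arrays.

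All 6 MAP2K genes on the platform were measured, and none passed the threshold. Map2k1 and Map2k2, the kinases that activate ERK, differed by -0.33 ± 0.22 and 0.06 ± 0.14 (SE, limma adjusted p = 0.323 and 0.804). Map2k1 was at 10.14, 10.35, 10.20 and 10.09 in wildtype and at 9.45, 9.43, 10.31 and 10.24 in Bapx1 null. Bapx1 null replicates 1 and 2 thus lay below all other arrays and replicates 3 and 4 within the wildtype range.

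Map2k5, the activator of ERK5 that Map3k3 phosphorylates, was at 8.01, 7.99, 8.38 and 8.34 in wildtype and at 8.71, 9.64, 8.70 and 8.39 in Bapx1 null, all of these above wildtype (difference 0.68 ± 0.25, SE, limma adjusted p = 0.140). The other probes of Map2k5 did not share this, with differences of 0.03 and -0.34, the latter on no Bapx1 null array above background. Mapk7, which encodes ERK5 itself, differed by 0.10.

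Map2k6, an activator of p38, had negative differences with all 3 probes, at -0.58, -0.83 and -1.17. Its brightest probe gave 6.95, 7.02, 7.30 and 7.25 in wildtype against 7.12, 6.40, 5.77 and 6.92 in Bapx1 null, where replicate 1 lay within the wildtype range (limma, adjusted p = 0.193). Both dimmer probes were detected on 2 of 4 Bapx1 null arrays. Map2k3, the other activator of p38, differed by 0.23, and Map2k4, an activator of JNK, by 0.23 with 1 probe and by -0.35 with the other.

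Of the MAP kinases 8 of 11 genes were measured. Mapk13, which encodes p38 delta, had the highest difference of this tier. Its values were 6.72, 7.12, 6.84 and 7.45 in wildtype against 7.21, 8.35, 8.25 and 8.03 in Bapx1 null. Bapx1 null replicate 1 lay among the wildtype arrays and the other 3 lay above all of them. Both probes had similar differences, 0.93 and 0.87, but the gene did not pass (limma, adjusted p = 0.104). Of the 25 alternatives it passed only in the one that left out Bapx1 null replicate 1 (adjusted p = 0.0366), where 1.09% of all genes passed.

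The other p38 genes lay on both sides of 0, with Mapk11 at 0.39, Mapk14, which encodes the widely expressed p38 alpha, at -0.08 and Mapk12 at -0.22. Mapk12 was detected on 4 wildtype arrays and 1 Bapx1 null array, so that its difference includes values at background. The JNK genes Mapk8 and Mapk9 both differed by 0.29. Both probes of Mapk8 had positive differences, whereas those of Mapk9 gave 0.29 and -1.03. The dimmer probe of Mapk9 lay between 6.80 and 7.07 in wildtype and was at 6.94, 5.16, 4.81 and 6.68 in Bapx1 null. Replicates 2 and 3 lay well below the rest. Mapk6, which encodes the atypical kinase ERK3, differed by -0.30, and by -0.59 and 0.35 with its other kept probes.

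Of 10 MAP kinase phosphatases, which dock on the kinases through a domain of their own, 7 were measured, 3 with positive and 4 with negative differences (median -0.05). Of 14 atypical dual specificity phosphatases 8 were measured, 7 with positive differences and 1 with a negative one (median 0.19). None of these 15 genes passed the threshold, and the difference between both kinds was not tested.

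Dusp6, the phosphatase specific to ERK and a feedback target of FGF signals, was at 11.35, 11.27, 11.20 and 11.11 in wildtype and at 10.87, 10.86, 10.63 and 10.74 in Bapx1 null. Every Bapx1 null array lay below every wildtype array, with a difference of -0.46 ± 0.12 (SE, limma adjusted p = 0.100). The other probe of Dusp6 also separated the genotypes, at 10.18, 9.99, 10.12 and 10.03 against 9.30, 8.93, 9.03 and 9.72, and differed by -0.84. The difference kept its sign in 24 of 25 alternatives. Scaling each array by its median and median absolute deviation (MAD) turned it, to 1.56, where the median gene lay at 1.02 and the bright genes Fgfr2 and Fgf10 at 2.93 and 2.40.

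Dusp4 and Dusp1, further phosphatases that growth factors induce, lay at -0.37 and -0.31 (limma, adjusted p = 0.217 and 0.234), whereas the second probe of Dusp4 lay at 0.18. MAD scaling placed them at 0.60 and 1.07, and at -0.41 and 0.05 once the median gene was subtracted. Values of immediate early genes, which growth factors and also the dissociation of a tissue induce, lay on both sides of 0. Of 12 measured genes of that list 6 had positive and 6 negative differences and none passed the threshold, with summed linear levels of 3947 to 7451 in wildtype against 3548 to 5328 in Bapx1 null. The widest differences were negative, at -2.58 for Fos, -1.54 for Fosb and -1.17 for Egr1 (limma, adjusted p = 0.118, 0.0916 and 0.124), beside 0.74 for Ier3 and 0.72 for Zfp36. Fosb was lower on each Bapx1 null array and was detected on none of them. It was kept only through the wildtype arrays, where it was brighter, and is given as a description. Their part in the phosphatase values was not tested.

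Dusp10, a phosphatase of JNK and p38, was at 6.26, 6.32, 6.04 and 6.15 in wildtype and at 6.74, 6.79, 7.11 and 6.62 in Bapx1 null. The genotypes did not overlap with this probe or with the second one, and the differences were 0.62 and 0.73. The second probe was detected on 2 of 4 wildtype arrays, so that its difference includes values at background. Dusp10 came next to Map3k3 in the adjusted p of these genes (limma, adjusted p = 0.0775). It passed with weights for array quality (adjusted p = 0.0481), where 2.06% of all genes passed. Without Bapx1 null replicate 4 it passed too (adjusted p = 0.0383), as did 12.7% of all genes. Dusp5, a nuclear phosphatase of ERK, also lay higher on each Bapx1 null array, by 0.27 on average. Dusp7 and Dusp16 differed by 0.12 and -0.05. Dusp9, a phosphatase of ERK, was not measured and was detected on 3 wildtype arrays and no Bapx1 null array.

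Dusp23, a small atypical phosphatase, was at 7.49, 7.33, 7.14 and 7.54 in wildtype and at 7.85, 8.62, 8.17 and 7.86 in Bapx1 null. Both probes separated the genotypes, with differences of 0.75 and 0.77 (limma, adjusted p = 0.0916 for the first). Without Bapx1 null replicate 4 the gene passed (limma, adjusted p = 0.041), as did 12.7% of all genes. The other 7 measured atypical phosphatases differed by -0.08 to 0.32.

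**Figure D4:**
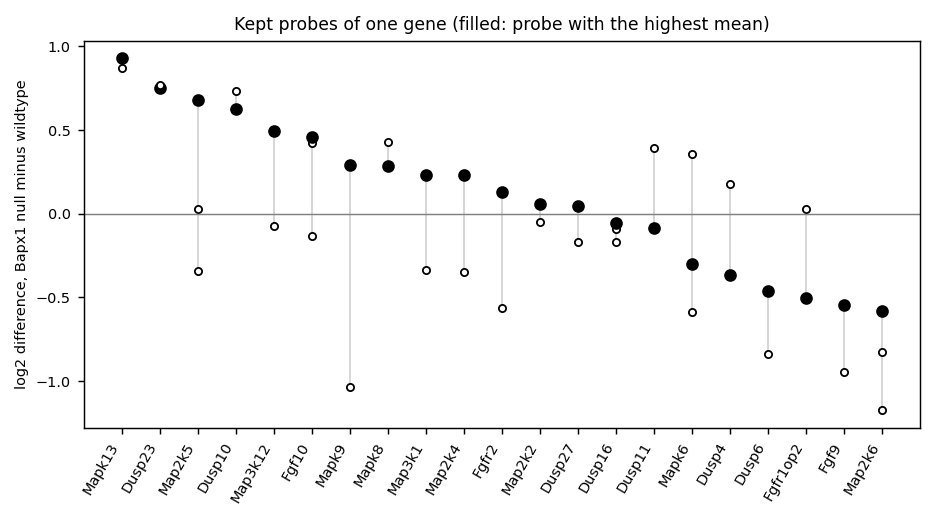
Log2 difference between Bapx1 null and wildtype (vertical axis) for each kept probe of the 21 genes that had several, with the probe of the highest mean filled. The probes of Mapk13, Dusp23 and Dusp10 lie together above 0 and those of Dusp6, Fgf9 and Map2k6 below it, whereas Mapk9, Map2k5 and Fgfr2 span 0.

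Several genes were read by probes that disagreed. Of the 21 genes with several kept probes, 8 had all differences of 1 sign (38.1%), against 60.3% of the 3595 such genes on the array. Those 8 were Mapk13, Dusp23, Dusp10, Mapk8, Dusp16, Dusp6, Fgf9 and Map2k6. Bapx1 null arrays were also more dispersed, with a larger SD than wildtype in 44 of 46 genes (95.7%, against 87.8% of all genes). Bapx1 null replicate 2 was the highest of the 8 arrays for 19 of the 46 genes and the lowest for 7, where it was the highest for 38.4% and the lowest for 23.3% of all genes. For 9 of the 46 genes fewer Bapx1 null than wildtype arrays detected the probe (19.6%, against 12.7% of all genes), and the opposite was found for 0, against 1.52%.

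Genes of the pathway outside these families were taken from a separate list. Of 66 adaptors, Ras and Raf proteins, scaffolds, co-receptors, downstream kinases and transcription factors 53 were measured, 32 with positive and 21 with negative differences (median 0.12). The threshold was passed by 3 of the 53, Fgfbp3, Nf1 and Shoc2, where 0.787% of all genes passed. This count was 0 with the share of detected probes as a further term and with the replicate number as a block, and it includes Shoc2, which met the detection filter through wildtype arrays alone. Fgfbp3, a secreted protein that binds FGFs, was at 7.90, 7.49, 7.55 and 7.58 in wildtype and at 8.34, 8.41, 8.33 and 8.35 in Bapx1 null (difference 0.73 ± 0.13, SE, limma adjusted p = 0.0433). Every Bapx1 null array lay above every wildtype array. The call was lost in 17 of 25 alternatives, and the difference was 0.11 without normalization between arrays and 0.23 with the processed values of the authors (limma, adjusted p = 0.838 and 0.597).

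Shoc2, a scaffold that promotes Raf activation, was at 5.49, 5.71, 5.73 and 5.84 in wildtype and was not above background on any Bapx1 null array, with measured values of 4.72, 4.49, 4.91 and 4.91. Having been kept only through the genotype in which it was brighter, it is given as a description, and its call was lost in 13 of 24 alternatives. The lowest signals that were detected on the Bapx1 null arrays were at least as bright as its wildtype mean, and no fold is given. Nf1, which encodes the Ras inhibitor neurofibromin, was at 6.30, 6.89, 6.70 and 6.95 against 5.76, 5.73, 5.79 and 6.02 (limma, adjusted p = 0.0495). The call was kept in only 4 of 25 alternatives. It was lost with the same sign in 20, and in 1 the sign turned and the gene did not pass. That 1 was the setting of probes detected on all 8 arrays, which left only a second probe of Nf1, with a difference of 0.40.

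The transcription factors Etv5 and Etv4, which FGF signals induce in many embryonic tissues, had differences of opposite sign. Etv5 was at 6.18, 6.63, 6.28 and 6.60 in wildtype and at 5.67, 5.87, 5.79 and 5.83 in Bapx1 null, with no overlap, a difference of -0.63 ± 0.15 (SE, limma adjusted p = 0.0775) and -0.91 with its other probe. Etv5 passed with the mean of both probes (limma, adjusted p = 0.048), with weights for array quality (0.049) and without Bapx1 null replicate 4 (0.0432). Of all genes 0.838%, 2.06% and 12.7% passed in these settings. Etv4 was at 6.44, 6.12, 6.97 and 6.73 against 7.17, 8.08, 6.39 and 6.41, where Bapx1 null replicates 1 and 2 were the highest arrays and the genotypes overlapped (difference 0.45 ± 0.36, SE, limma adjusted p = 0.408). Whether Etv5 and Etv4 differed from each other in response was not tested.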

How the data were processed

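Total RNA of EGFP-positive gut cells at E12.5, sorted by FACS, had been labelled and hybridised to Illumina MouseWG-6 v2 BeadChips by the authors, with 4 biological replicates for each genotype. The deposited intensity table held 1 value per probe and array, exported by the authors with GenomeStudio, with no background subtraction or normalization found in the values. Beside it stood a deposited fraction from 0 to 1, headed as detection, which rose with intensity (Spearman correlation of at least 0.976 across probes) and was read as 1 minus the detection p. A table of processed log2 values was deposited as well, each column centred near 0 (medians from -0.0112 to 0.0145), and what its probe baseline had been taken over stays unknown.

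The 45281 probes of both tables carried different identifiers and were joined on differences between arrays, which matched within 1.82e-06 (the closest other probe differed by at least 0.0151). The platform annotation gave 1 symbol for 34885 probes and several for 18, and 10378 were unnamed here. Intensities were background corrected (nec, offset 16), quantile normalized and log2 transformed. Genotypes were compared with limma 3.58.1 in R 4.3.3 (lmFit, eBayes) on genotype alone, and p values were adjusted by Benjamini-Hochberg. The script was tested on simulated data with known changes. Every column of values belonged to a sample of this series.

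Where no array of a genotype detected a probe, "at least" marks a bound, set by dividing the brighter mean by the lowest detected signal of each dim array, or by the dim value where that was higher. The number of arrays limits the precision. In all 25 alternatives were run, the one-way ANOVA and the MAD scaling of the study's methods among them. Same-numbered samples of both genotypes did not deviate together (correlations of 0.15, -0.18, -0.06 and -0.14), so replicate numbers were not used as a block.

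The genes named were those past the threshold, the 8 highest and 8 lowest differences, and a list of ligands, receptors, inhibitors and kinases. Named after their values were seen were Fgf13, Spry3, Map3k8, Map3k11, Map2k3, Mapk6, Mapk7, Mapk9, Mapk11, Mapk12, Dusp5, Dusp7, Dusp16, the immediate early genes and genes that were not measured. The members and all lists were chosen with earlier results of these data known.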

Additional observations from a re-analysis of the deposited data

Results flagged for a closer look

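Among the values of the named genes, 1 of 62 groups of 4 arrays held an array far from the other 3. For Fgf10 wildtype replicate 1 was at 10.20 in log2 intensity, whereas the other wildtype arrays were between 10.61 and 10.68. Chance alone marks about 1 in 20 such groups. Without that array the Fgf10 difference was 0.35 (limma, adjusted p = 0.311).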

How the results depend on the processing

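The counts of genes past the threshold depended on the processing. With the processed values of the authors 8 genes, 0 pathway members and 0 other pathway genes passed, without normalization between arrays 45, 0 and 0, and with MAD scaling 0, 0 and 0 (limma, where 5067 genes and 23 members had an unadjusted p under 0.05). With no filter 49 genes and 0 members passed, with one-way ANOVA 2 genes, 0 members and 0 other pathway genes (2092 and 8 at an unadjusted p under 0.05), and with the share of detected probes as a covariate 2, 0 and 0 (987 and 5). Weights for array quality gave 202 genes and 2 members, Dusp10 and Map3k3. Of the other pathway genes 1 passed with no background correction, with an offset of 50, with probes detected on all 8 arrays, with an intensity trend and without Bapx1 null replicates 2 and 3, where 72 genes and 1 member passed. With the replicate number as a block (replicate block) 51 genes, 1 member and 0 other pathway genes passed. The block is not a paired design, and only replicate 1 matched its own number best. Leaving out 1 array gave 4 to 1245 genes, 0 to 5 members and 0 to 9 other pathway genes. The lowest count came without wildtype replicate 1 or 4 and the highest without Bapx1 null replicate 4 (members Dusp10, Dusp23, Map3k14, Map3k3 and Map3k7). Without Bapx1 null replicate 1 Map3k3 and Mapk13 passed. The cause was not tested.

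The median difference of the members was -0.17 with the processed values, -0.36 without normalization and 1.14 with MAD scaling, where the median of all genes was -0.25, -0.45 and 1.02. It was 0.041 with no filter, 0.019 with the mean of the probes, 0.044 with every probe, 0.033 with array weights, -0.025 with the covariate, 0.031 without Bapx1 null replicates 2 and 3, and 0.07 to 0.15 without 1 array. For the 31 named genes 645 of 770 values kept direction and side of the threshold, 61 lost the call, 9 gained it and 55 turned sign, in each case as follows. With the processed values these were Fgfr2 -0.091, Map2k2 -0.23, Map2k4 -0.053, Map3k1 -0.035, Mapk8 -0.11, Spred1 -0.28, Spry2 -0.046 and Etv4 -0.045. Without normalization they were Fgfr2 -0.22, Map2k2 -0.36, Map2k4 -0.19, Map3k1 -0.17, Map3k12 -0.021, Mapk8 -0.25, Spred1 -0.43, Spry2 -0.28 and Etv4 -0.21. With MAD scaling they were Dusp1 1.07, Dusp4 0.60, Dusp6 1.56, Fgfr1op2 0.53, Map2k1 1.11, Map3k4 0.55 and Mapk14 1.70, of which Dusp4, Fgfr1op2 and Map3k4 stayed negative relative to the median of all genes. Probes detected on all 8 arrays gave Nf1 0.40, from its other probe. The mean of the probes gave Fgfr2 -0.22, Map2k4 -0.057 and Map3k1 -0.051, and the probe of lowest p gave Fgfr2 -0.56, Map2k4 -0.35 and Map3k1 -0.33. Array weights gave Fgfr1op2 0.088, Map2k2 -0.027, Mapk14 0.071, Spred1 -0.14 and Spry2 -0.0039. The covariate gave Fgfr1op2 0.80, Fgfr2 -0.049, Map2k2 -0.010, Map2k4 -0.18, Map3k12 -0.039, Map3k4 0.25, Mapk8 -0.062, Spred1 -0.094 and Etv4 -0.37. Without Bapx1 null replicates 2 and 3 the values were Fgfr1op2 0.29, Map2k2 -0.11, Mapk14 0.051 and Spred1 -0.14. Leaving out 1 array turned Fgfr1op2 (-0.79 to 0.12), Map2k2 (-0.045 to 0.14), Mapk14 (-0.23 to 0.082) and Spred1 (-0.028 to 0.14). Other than in these, no setting turned a named gene.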
